A study of Arabidopsis thaliana with 8 samples.

Results

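The MYB-bHLH-WD-repeat (MBW) partners and epidermal patterning genes of *Arabidopsis thaliana* were taken as the 10 loci named in a list drawn up for this description, out of 28496 genes in the count table. They were *TT8*, *GL3*, *EGL3*, *TTG1*, *WER*, *GL1*, *CPC*, *TRY*, *GL2* and *TTG2*. The rule used names only, but the names were chosen with earlier results of these data known. All 10 passed the filter on low counts that left 20382 genes for testing. RNA-seq libraries came from whole 6-day-old seedlings grown in vitro on MS agar under an 8 h photoperiod at 22 °C, without treatment. The groups were wild-type Col-0 (3 libraries), *TT2* OE (3 libraries) and *MYB5* OE (2 libraries). Each OE line carried its *MYB* coding sequence under the CaMV 35S promoter, which drives expression in most tissues, in the Col-0 background. Several independent lines of each construct were recovered, and which one was sequenced is not stated in the sources used here. The libraries fall into 3 rounds, each with 1 library of a genotype, *MYB5* OE being in rounds 1 and 2 only, and genotypes were compared within rounds.

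MBW complexes are transcription factor assemblies of an R2R3-MYB, a bHLH protein and the WD-repeat protein TTG1. The MYB sets the target: TT2 with TT8 and TTG1 switches on proanthocyanidin genes in the seed coat, GL1 with GL3 or EGL3 starts trichomes on leaves, and WER with GL3 or EGL3 sets the hairless fate in the root epidermis. Small R3-MYB proteins such as CPC and TRY bind the bHLH without activating transcription and limit these complexes in neighbouring cells. GL2 and TTG2, a homeodomain and a WRKY transcription factor, act downstream of them. MYB5 is an R2R3-MYB known from the seed coat and trichomes.

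Upstream sequence is shown for *TT8* and *TTG2*, the 2 members that differed between genotypes. Each run is the 300 bases before the annotated gene start, read from the RefSeq TAIR10.1 genome, 5′ to 3′ on the gene's strand. Capitals mark matches on either strand to a bHLH-type motif (CANNTG, which includes CACGTG) in *TT8*, to CACGTG in *TTG2*, and to the MYB-type motif CNGTTA in both. They do not mark every possible MYB site. The study names the MYB core as [C/T]NGTTR, where R is A or G, and also an AC-rich element. Forms of the core that start with T, and the AC-rich element, were not searched.
TT8, chr4:6181581-6181880, plus strand: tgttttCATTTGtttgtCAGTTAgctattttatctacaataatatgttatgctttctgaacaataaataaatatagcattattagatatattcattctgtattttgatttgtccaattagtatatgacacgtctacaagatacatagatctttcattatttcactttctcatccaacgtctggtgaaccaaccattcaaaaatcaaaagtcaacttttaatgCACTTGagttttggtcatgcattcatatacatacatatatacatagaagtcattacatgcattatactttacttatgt
TTG2, chr2:15644511-15644810, plus strand: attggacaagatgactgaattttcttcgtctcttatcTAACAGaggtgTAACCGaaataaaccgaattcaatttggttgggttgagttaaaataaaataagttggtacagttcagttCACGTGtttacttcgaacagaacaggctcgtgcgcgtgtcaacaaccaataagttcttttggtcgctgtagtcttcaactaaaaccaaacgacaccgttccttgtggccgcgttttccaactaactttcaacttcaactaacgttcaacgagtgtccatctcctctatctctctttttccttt
*TT8* had CANNTG matches starting 294 and 78 bases before the gene start and a CNGTTA match at 283. *TTG2* had CACGTG at 183 and reverse-strand CNGTTA matches at 263 and 252. Among the windows of 20303 tested genes, 8.1% held CACGTG, 62.9% held CANNTG and 31.4% held CNGTTA, so none of these matches sets the genes apart by itself. Of the other members, *WER* (at 299 bases) and *GL1* (at 9 bases) also held CACGTG. *EGL3* held none of the 6 motifs searched, the others being CNGTTG (24.4% of windows), TGGGCC (17.1%) and TGGGCT (15%). These are letter matches, and no binding was measured.

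The libraries held 35496351 to 48428855 counts each. The transgenes marked the lines as labelled. *TT2* was at 499 ± 28.6 CPM (counts per 1000000 counts, scaled for library composition; SD, n = 3) in *TT2* OE and 0.190 ± 0.127 (n = 3) in Col-0. *MYB5* was at 267 ± 20.5 CPM (n = 2) in *MYB5* OE and 0.0864 ± 0.0617 (n = 3) in Col-0. All 5 root hair cell markers and all 5 leaf photosynthesis markers had counts in every library. The leaf markers summed to 35317 to 44872 CPM over the 8 libraries. The study describes 3 independent biological replicates for the genotypes, while only 2 libraries of *MYB5* OE were among the samples used here. The labels do not say what separated the libraries of a group, so p-values measure the spread between these libraries.

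**Figure D1:**
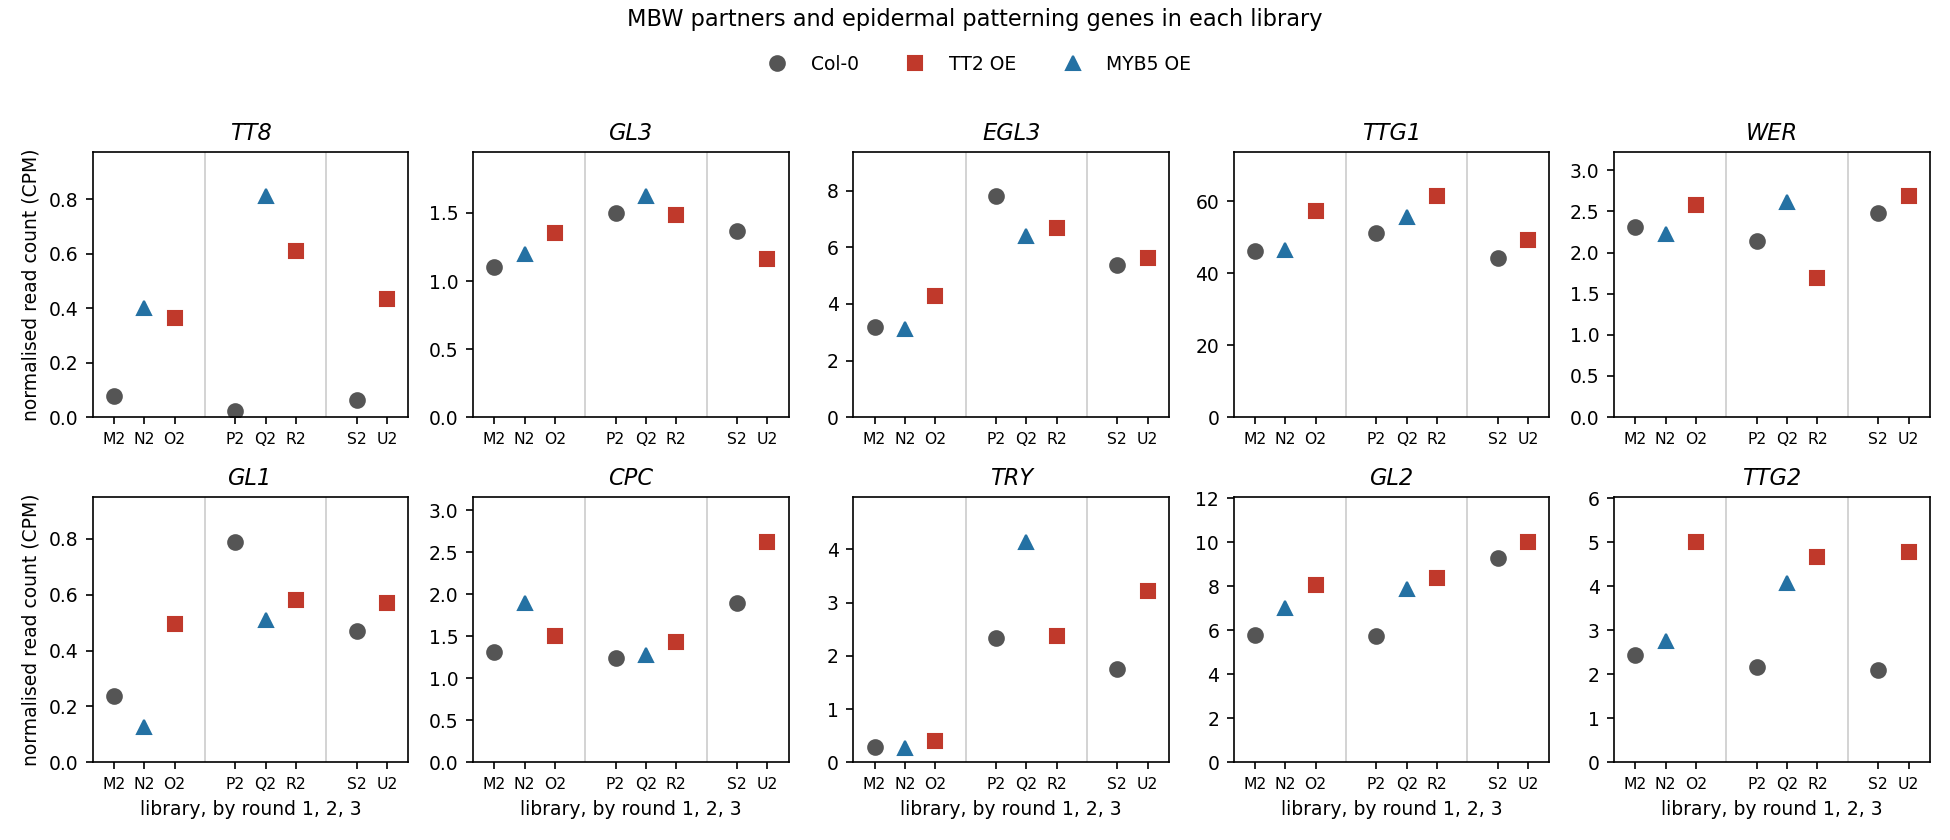
Normalised read count (CPM, linear axes from 0) of the 10 members in each of the 8 libraries, with vertical lines between rounds 1, 2 and 3. *TT8* and *TTG2* lay above Col-0 in every library of both lines, whereas *TRY* was low in all 3 libraries of round 1, at 0.275 to 0.409 CPM.

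In *TT2* OE, 2 of the 10 members rose against Col-0 and none fell, *TT8* by 8.46-fold and *TTG2* by 2.16-fold. Over all genes tested, 1.41% were called, 0.697% higher and 0.711% lower, at the same threshold (edgeR quasi-likelihood test, Benjamini-Hochberg adjusted p under 0.05). At an unadjusted p under 0.05, *TTG1* and *GL2* joined them, making 4 of 10 members against 12.8% of all genes. The median log2 ratio of the members was 0.27, and that of all genes tested was 0.00098. In *MYB5* OE no member passed the adjusted threshold, which 0.167% of all genes did, 0.0736% higher and 0.0932% lower. *TT8*, *TRY* and *TTG2*, 3 of 10, had an unadjusted p under 0.05 there, against 8.26% of all genes. DESeq2 and the edgeR likelihood ratio test each called 1 member in *MYB5* OE, *TT8*. The member median was 0.23 and the median of all genes -0.0030. Both lines were set against the same Col-0 libraries, so their ratios are not independent. *TT8* entered these counts and medians only through the OE libraries, where it was high. The members were chosen with earlier results of these data known, and the study itself reported *TT8* and *TTG2* as higher in *TT2* OE. Their shares and medians beside those of all genes are thus a description and no test of the list.

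*TT8*, the bHLH partner of TT2 in the seed coat (AT4G09820, chromosome 4, 6181881 to 6186523, 7 exons), had very few counts in wild-type seedlings. The Col-0 libraries of rounds 1, 2 and 3 held 3, 1 and 3 counts, or 0.0789, 0.0208 and 0.0641 CPM. In *TT2* OE the gene had 17, 23 and 16 counts, or 0.366, 0.609 and 0.433 CPM. In *MYB5* OE it had 16 and 35 counts, or 0.401 and 0.811 CPM in rounds 1 and 2. *TT8* thus passed the filter on low counts only through the OE libraries, where it was high. Every library of either line lay above every Col-0 library. Of all genes, 2.02% separated upward from Col-0 in this way for *TT2* OE and 3.90% for *MYB5* OE, and the downward separation, which no member showed, for 2.71% and 5.07%. The fitted log2 ratio was 3.08 (95% interval 1.76 to 4.40, adjusted p = 0.0294) in *TT2* OE and 3.42 (1.98 to 4.85, adjusted p = 0.0714) in *MYB5* OE, by edgeR. The test was thus passed in one line only, while the interval of the difference between the lines ran from -1.42 to 0.75. Pooled over libraries, 56 counts in *TT2* OE against 7 in Col-0 gave a ratio of 8.77 (exact 95% interval 3.99 to 22.8). For the 51 counts of *MYB5* OE the ratio was 11.6 (5.26 to 30.4), and both of these intervals cover counting error only. The fitted ratios include a small prior count and the pooled ones do not. The call in *TT2* OE was lost in 6 of the 8 fits that left out a library, with adjusted p from 0.0684 to 0.226. It held only without either *MYB5* OE library, and the p of 0.226 came without the round 2 Col-0 library, where the log2 ratio was 2.41.

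The other bHLH genes were expressed in all libraries at levels that did not separate by genotype. *GL3* (AT5G41315), which acts in trichomes and root epidermis, ranged from 1.10 to 1.62 CPM, and each line's libraries overlapped those of Col-0. Its log2 ratio was 0.02 in *TT2* OE (95% interval -0.51 to 0.55) and 0.05 in *MYB5* OE (-0.56 to 0.67). *EGL3* (AT1G63650), its close relative with a further role in anthocyanin synthesis, was at 3.18, 7.79 and 5.39 CPM in the Col-0 libraries of rounds 1 to 3. The *TT2* OE libraries had 4.28, 6.69 and 5.63 CPM of *EGL3*, and the *MYB5* OE libraries 3.10 and 6.39. These values followed the round rather than the genotype, with log2 ratios of 0.08 (-0.26 to 0.41) in *TT2* OE and -0.18 (-0.58 to 0.21) in *MYB5* OE.

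*TTG1* (AT5G24520, chromosome 5), the WD-repeat scaffold shared by all these complexes, was the most abundant member. Per kilobase of annotated exon its mean level in Col-0 was 25.1 CPM, and that of the next member, *GL2*, was 2.16. *EGL3*, *CPC*, *WER* and *TRY* followed, at 2.08, 1.95, 1.84 and 1.61 CPM per kilobase, and the Col-0 ranges of these 5 overlapped. *TTG2* (1.15), *GL1* (0.529) and *GL3* (0.490) came lower in the mean, all within the Col-0 range of *TRY* (0.320 to 2.58), *GL1* and *GL3* with overlapping ranges, and *TT8* was last at 0.0272. Between genotypes, *TTG1* was at 46.0, 51.1 and 44.3 CPM in Col-0 and 57.3, 61.3 and 49.1 in *TT2* OE. Each *TT2* OE library was above the Col-0 library of its round, but the groups overlapped. The log2 ratio of 0.24 (0.06 to 0.43) did not pass the threshold (adjusted p = 0.23). In *MYB5* OE the *TTG1* values were 46.4 and 55.6 CPM and the log2 ratio was 0.04 (-0.17 to 0.26).

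The epidermal R2R3-MYB genes, which encode the MYB subunits of the trichome and root complexes, did not pass the test in either line. *WER* (AT5G14750) was at 1.69 to 2.68 CPM over all 8 libraries. Its ratio to Col-0 was 0.999-fold in *TT2* OE (95% interval 0.732 to 1.36) and 1.12-fold in *MYB5* OE (0.775 to 1.61). *GL1* (AT3G27920) was rare, with 5 to 38 counts per library. It was at 0.237, 0.790 and 0.470 CPM in Col-0, 0.495, 0.582 and 0.569 in *TT2* OE, and 0.125 and 0.509 in *MYB5* OE. The log2 ratio of *GL1* was 0.24 (-0.66 to 1.14) in *TT2* OE and -0.69 (-1.82 to 0.45) in *MYB5* OE, intervals wide enough to hold changes in either direction. In whole seedlings, fewer cells that express a gene and less RNA per cell cannot be told apart.

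The R3-MYB inhibitor genes also stayed short of the threshold. *CPC* (AT2G46410), whose protein moves into future root hair cells, was at 1.32, 1.25 and 1.90 CPM in Col-0, 1.51, 1.43 and 2.63 in *TT2* OE, and 1.90 and 1.27 in *MYB5* OE. Its log2 ratio was 0.29 in *TT2* OE (-0.20 to 0.78) and 0.34 in *MYB5* OE (-0.24 to 0.92). *TRY* (AT5G53200), which spaces trichomes, was at 0.289, 2.33 and 1.75 CPM in Col-0 and at 0.409, 2.38 and 3.22 in *TT2* OE. In *MYB5* OE it was at 0.275 CPM in round 1 and 4.15 in round 2. The log2 ratio of *TRY* in *MYB5* OE was 0.77 (0.06 to 1.48, adjusted p = 0.569), and within rounds it was -0.05 in round 1 and 0.81 in round 2 on the log2(CPM + 0.1) scale. In *TT2* OE the *TRY* ratio was 0.49 (-0.12 to 1.09).

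Of the downstream genes, *TTG2* (AT2G37260, chromosome 2, 15644811 to 15647076, 5 exons), a WRKY factor of trichomes and seed coat, differed from Col-0 by a similar amount in all 3 *TT2* OE libraries. It was at 2.45, 2.16 and 2.09 CPM in Col-0 and at 5.01, 4.66 and 4.77 CPM in *TT2* OE. In *MYB5* OE it was at 2.75 CPM in round 1 and 4.08 in round 2. The lowest library of *TT2* OE was thus above every library of the other groups, and both *MYB5* OE libraries were above all of Col-0. The log2 ratio to Col-0 was 1.11 (0.71 to 1.51, adjusted p = 0.0122) in *TT2* OE, with 1.01, 1.07 and 1.15 in the rounds taken alone. In *MYB5* OE it was 0.59 (0.11 to 1.06, adjusted p = 0.475), with 0.16 in round 1 and 0.89 in round 2. Without the round 2 library of *MYB5* OE that ratio was 0.23, and without the round 1 library it was 0.91. The *TT2* OE call was lost in 3 of the 8 fits that left out a library, without the round 1 or round 2 *TT2* OE library or the round 2 Col-0 library, with adjusted p from 0.064 to 0.0878.

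*GL2* (AT1G79840), the homeodomain factor of trichomes and hairless root cells, was at 5.76, 5.74 and 9.30 CPM in Col-0 and 8.07, 8.39 and 10.02 in *TT2* OE. The *MYB5* OE libraries had 7.01 and 7.85 CPM of *GL2*. Each OE library was above the Col-0 library of its round, but the round 3 Col-0 library overlapped both lines. The log2 ratio was 0.38 in *TT2* OE (0.09 to 0.66, adjusted p = 0.228) and 0.30 in *MYB5* OE (-0.04 to 0.63, adjusted p = 0.672). *GL2* shares 198 bases with AT1G79850 on the opposite strand, a gene at 173 to 332 CPM, and whether the deposited counts used strand is not stated. The log2 ratio of AT1G79850 was 0.29 in *TT2* OE (adjusted p = 0.173) and 0.35 in *MYB5* OE (adjusted p = 0.314), and its part in the *GL2* values was not tested. *GL2* also overlaps an RNA gene on its own strand by 155 bases, and *GL3* overlaps one on the opposite strand by 36 bases.

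**Figure D2:**
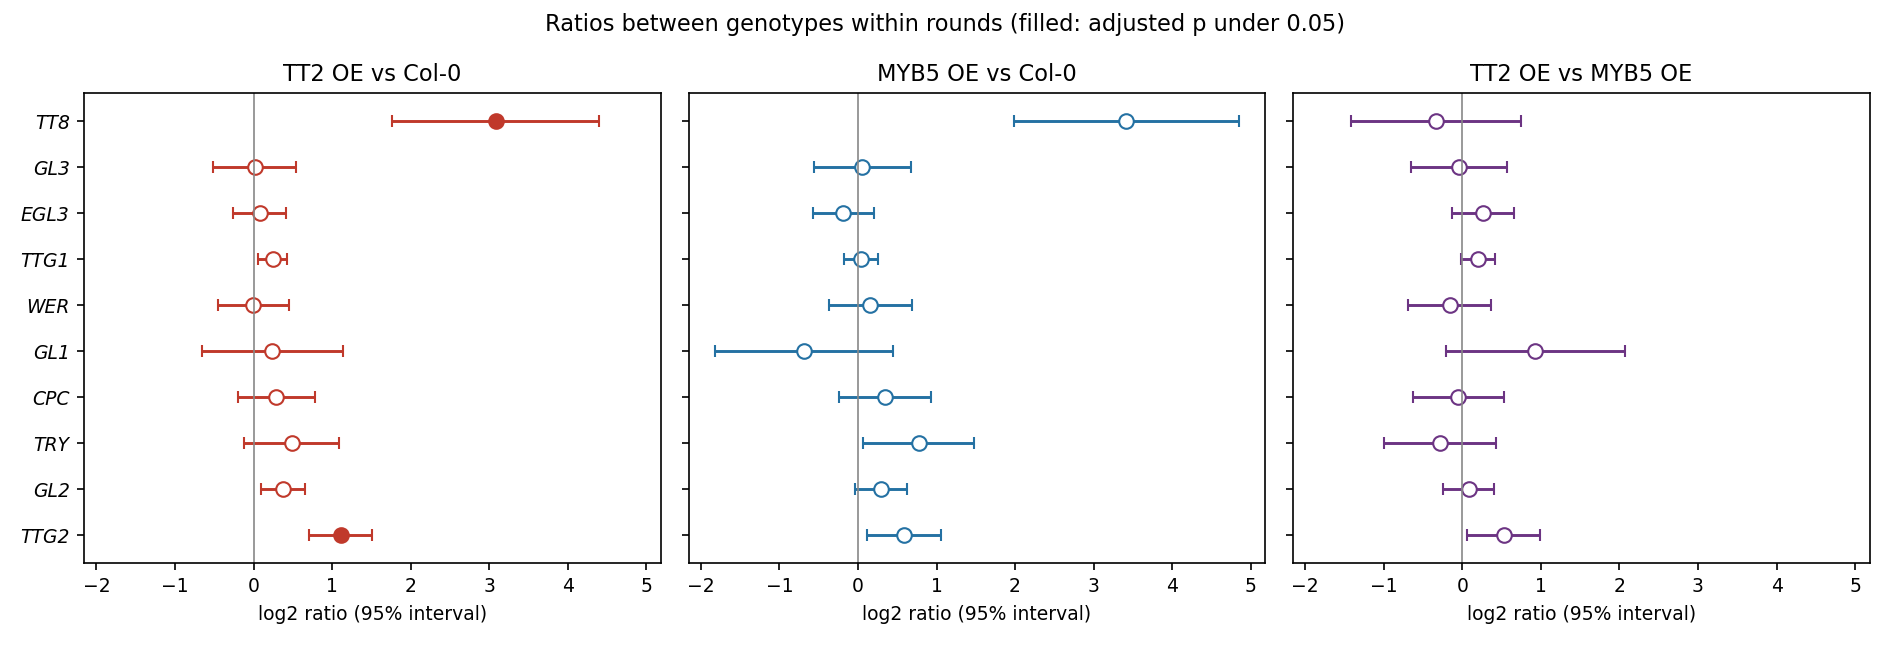
Log2 ratios of the 10 members between genotypes, estimated within rounds, with 95% intervals as bars and filled points for an adjusted p under 0.05. The panels show *TT2* OE against Col-0, *MYB5* OE against Col-0 and *TT2* OE against *MYB5* OE, and the only filled points are *TT8* (3.08) and *TTG2* (1.11) in the first.

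By sign alone, 6 of the 10 members were above the Col-0 library of the same round in all 3 *TT2* OE libraries, namely *TT8*, *TTG1*, *CPC*, *TRY*, *GL2* and *TTG2*, against 17.6% of all genes, and none was below it in all 3, against 17.3%. In *MYB5* OE the 6 members above Col-0 in both rounds were *TT8*, *GL3*, *TTG1*, *CPC*, *GL2* and *TTG2*, against 26.9% of all genes. *EGL3* and *GL1*, 2 of 10, were below Col-0 in both rounds, and 28.8% of all genes were too. *TT8* is among the 6 in each line, and it passed the filter on low counts only through the OE libraries, where it was high. The members were also chosen with earlier results known, so these counts are a description. Members of one pathway are not replicates of a condition.

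Set directly against each other, the lines did not differ in any member at the adjusted threshold, which 0.172% of all genes passed. Neither DESeq2 nor the edgeR likelihood ratio test called a member in this comparison. At an unadjusted p under 0.05 there was 1 of 10, *TTG2*, against 3.91% of all genes. *TTG2* had a log2 ratio of *TT2* OE to *MYB5* OE of 0.53 (0.06 to 0.99). Its *TT2* OE libraries lay above those of *MYB5* OE, as did those of *GL2*, a separation seen for 4.47% of all genes, while no member lay below *MYB5* OE, against 3.39%. For *GL2* the log2 ratio was 0.08 (-0.25 to 0.41) once rounds were taken into account. The *GL1* ratio was 0.93 (-0.21 to 2.07), and that of *TT8* was -0.34. Within both rounds, 5 members were higher in *TT2* OE (24.9% of all genes) and 1, *TT8*, was lower (23.4%). The member median was 0.02 and the median of all genes 0.01.

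Genes listed beside the members for the same or related pathways mostly did not pass the test in either line. None of 4 genes listed as other MBW subunits or their relatives (*MYC1*, *MYB23*, *LWD1* and *LWD2*) was called in either OE line. None of 5 other R3-MYB inhibitors was called there. None of 7 trichome regulators outside the complex that passed the filter (of 8 listed), 8 root epidermis regulators or 4 seed coat mucilage genes was called either. Of all genes, 1.41% were called in *TT2* OE and 0.167% in *MYB5* OE. At those shares, lists this short would hold few or no calls. At an unadjusted p under 0.05, the count was 0 in each of these lists for *TT2* OE, where 12.8% of all genes had such a p. For *MYB5* OE, with 8.26% of all genes, it was 2 trichome regulators, with ratios below 1 (*GIS* and *ZFP5*), and 3 root epidermis regulators, *SCM* below 1 and *RSL2* and *RSL4* above 1. DESeq2 and the edgeR likelihood ratio test called no gene of these lists in either line. The median log2 ratios of these 5 lists ran from -0.06 to 0.10 in *TT2* OE and from -0.02 to 0.17 in *MYB5* OE. TT2 activates late flavonoid and proanthocyanidin genes in seeds. In *TT2* OE, 4 of the 5 of these that passed the filter (of 6 listed) rose, against 0.697% of all genes. This list was chosen with earlier results of these data known, and the study itself reported *BAN*, *DFR* and *LDOX* as raised in *TT2* OE. The share is thus a description and no test of the list. In *MYB5* OE none of these genes passed the adjusted threshold, none had an unadjusted p under 0.05, and neither other tool called one. *BAN*, which encodes anthocyanidin reductase, had 0 counts in Col-0, 166 in *TT2* OE and 1 in *MYB5* OE. It thus passed the filter on low counts only through *TT2* OE, where it was high. *DFR* was at 0.156 ± 0.226 CPM in Col-0 (n = 3), 3.56 ± 0.491 in *TT2* OE (n = 3) and 0.224 ± 0.175 in *MYB5* OE (n = 2). *LDOX* and *TT19* were the other 2 that rose, to 1.45 ± 0.404 and 0.877 ± 0.487 CPM in *TT2* OE from 0.258 ± 0.221 and 0.185 ± 0.0950 in Col-0. In *MYB5* OE, with *TT8* at 0.606 ± 0.290 CPM, *LDOX* was at 0.215 ± 0.0562 and *TT19* at 0.414 ± 0.266.

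Among the members, differences between rounds passed the test more often than differences between genotypes. In round 2 against round 1, 3 of 10 members passed, all higher, where 54.4% of all genes passed in either direction. In round 3 against round 1 it was again 3, all higher, against 40.8% of all genes. In round 3 against round 2, 3 passed, 2 higher and 1 lower, against 37.4%. The members' shares were thus near or under those of the whole table, and the sources used here do not say what a round was.

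*TRY* changed most between rounds. Its 3 libraries of round 1 held 0.275 to 0.409 CPM, those of round 2 held 2.33 to 4.15, and those of round 3 held 1.75 to 3.22, with no overlap between round 1 and the others. *TRY* was 8.87-fold higher in round 2 than in round 1 (5.57 to 14.1, adjusted p = 3.72e-06) and 8.35-fold higher in round 3 than in round 1 (4.96 to 14.1, adjusted p = 1.97e-05). Both calls held in every alternative that kept rounds in the fit and with any single library left out. Rounds 2 and 3 gave a log2 ratio of -0.09 for *TRY* (-0.73 to 0.55). *EGL3* was higher than in round 1 by a log2 ratio of 0.99 (0.65 to 1.32, adjusted p = 0.000179) in round 2 and 0.57 (0.18 to 0.97, adjusted p = 0.0227) in round 3. *GL1* was higher in round 2 than in round 1, by 1.18 (0.23 to 2.14, adjusted p = 0.0372).

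*GL2* was higher in round 3, by log2 ratios of 0.53 over round 1 (adjusted p = 0.014) and 0.46 over round 2 (adjusted p = 0.0312). AT1G79850, the gene that overlaps it, went the other way there, with -0.26 (adjusted p = 0.0686) and -0.53 (adjusted p = 0.00236). *CPC* was higher in round 3 than in round 2 by 0.83 (0.27 to 1.39, adjusted p = 0.0243), and *TTG1* was lower by a log2 ratio of -0.28 (adjusted p = 0.0408). *TTG2*, *WER*, *GL3* and *TT8* did not pass the test between any pair of rounds. The calls in *GL1*, *CPC*, *TTG1* and *GL2*, and that of *EGL3* in round 3, each lapsed in at least 1 fit without a library, with adjusted p up to 0.316.

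**Figure D3:**
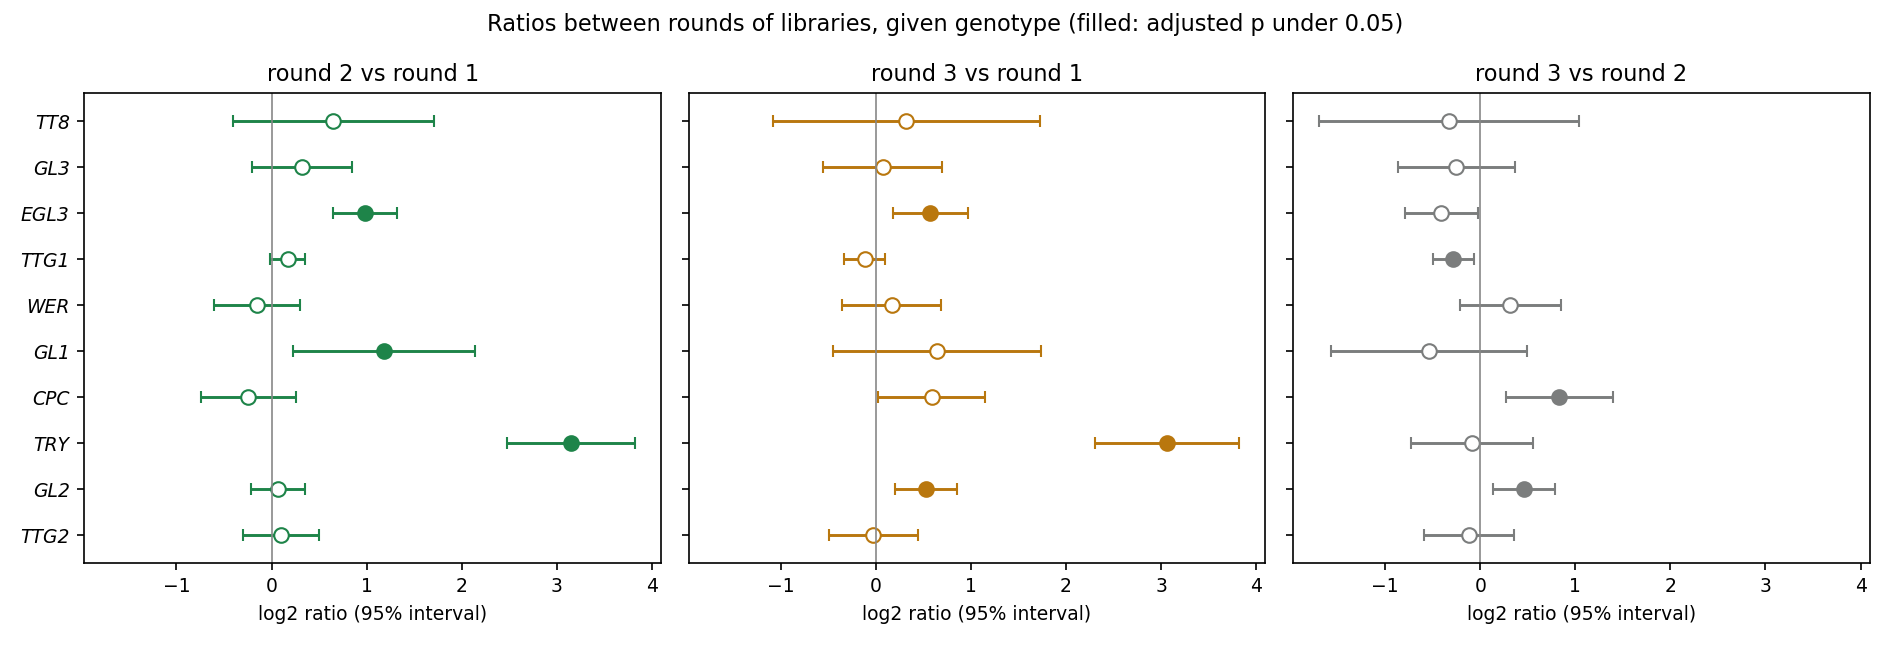
Log2 ratios of the 10 members between rounds of libraries, given genotype, with 95% intervals as bars and filled points for an adjusted p under 0.05. *TRY* stood at 3.15 and 3.06 over round 1 in the panels of rounds 2 and 3, and the other filled points lay between -0.28 and 1.18.

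Of the 5 root hair markers, 3 (*COBL9*, *PRP3* and *LRX1*) were higher in round 2 than in round 1, where 54.4% of all genes passed. *EXPA7* and *EXPA18* did not pass, with log2 ratios of -0.10 and 0.15. Of the 5 leaf photosynthesis markers, 3 were also higher in that comparison. In round 3 against round 1, 0 root hair markers passed, against 40.8% of all genes. The summed level of the 5 root hair markers was 69.9 to 79.1 CPM in round 1, 125 to 148 in round 2 and 71.7 to 97.4 in round 3. Its part in the member values was not tested. *PRP3* made up the largest share of this sum, at 34.0 to 85.5 CPM per library. The 5 other R3-MYB inhibitor genes, named here after their values were seen, were not all higher than in round 1 as *TRY* was. *ETC2* was at 1.37 to 1.50 CPM in round 1, 0.317 to 0.561 in round 2 and 0.363 to 0.460 in round 3. Its ratios to round 1 were 0.328-fold (adjusted p = 0.00102) and 0.298-fold (adjusted p = 0.00333), so *ETC2* was lower where *TRY* was higher. *TCL2* was also lower than in round 1 in rounds 2 and 3, at 0.647-fold and 0.484-fold. *TCL1* was lower in round 3, at 0.151-fold (0.0504 to 0.455), where its libraries held only 1 and 4 counts. *CPL3* was higher in rounds 2 and 3, at 1.94-fold and 2.13-fold, the latter near the threshold (edgeR quasi-likelihood test, adjusted p = 0.0494). *ETC1* was higher in round 3 than in round 1, at 2.29-fold.

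**Figure D4:**
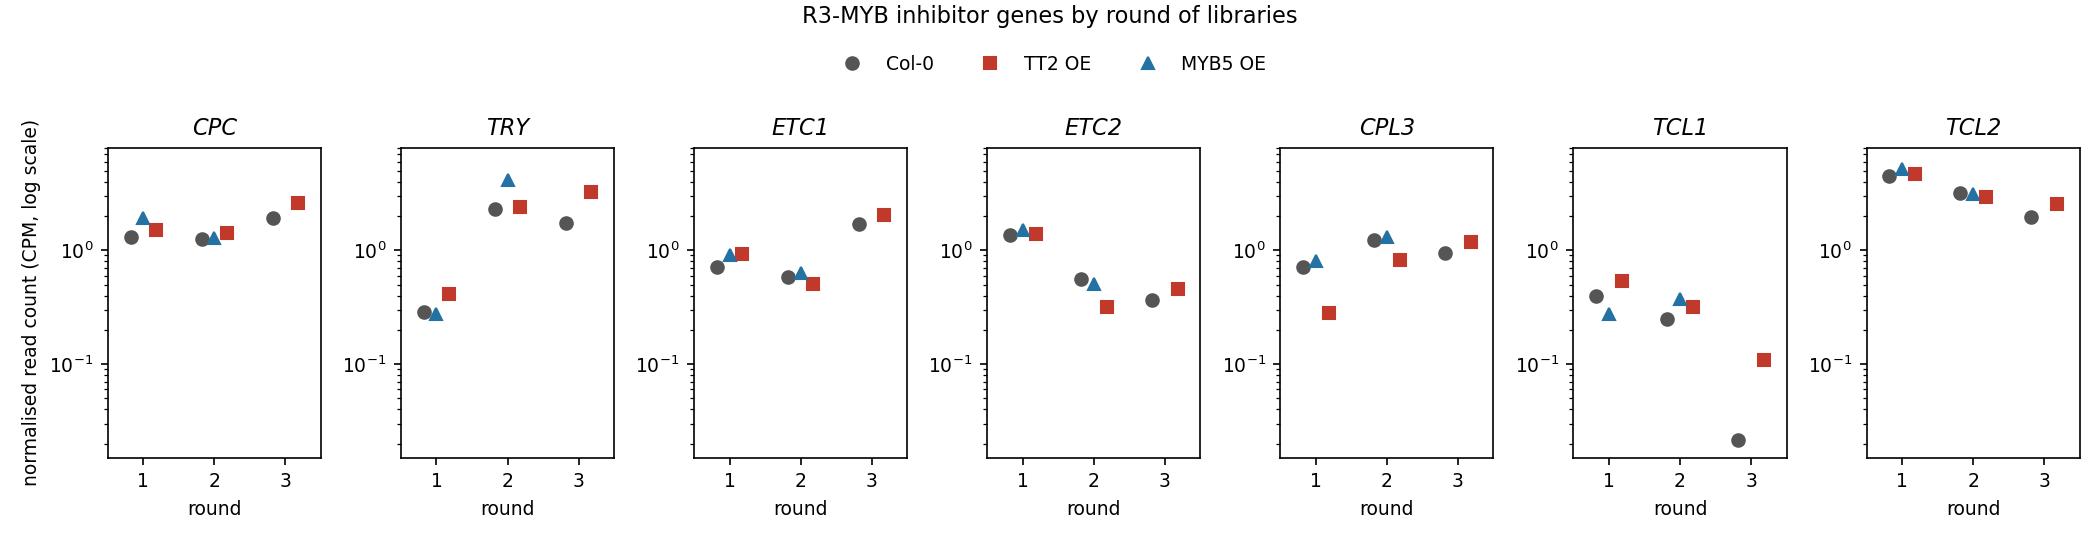
Normalised read count (CPM, log axis) of *CPC*, *TRY* and the 5 other R3-MYB inhibitor genes in rounds 1, 2 and 3, with 1 point per library and symbols for genotype. *TRY* and *ETC2* ran in opposite directions between round 1 and the later rounds.

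With round means removed, the genes whose log2(CPM + 0.1) over the 8 libraries was most like that of *TT8* were *SPT1* (Pearson r = 0.9995), *LSD1* (0.996) and AT2G35900 (0.995). For *TTG2* they were *AGP17* (0.998), AT3G59880 (0.996) and AT4G14746 (0.989). These were picked as the 3 nearest of 18196 and 18195 genes with a mean of at least 1 CPM. As many as 404 genes for *TT8* and 326 for *TTG2* had r above 0.9. Points from the same 8 libraries share depth and round, so these values are a description only.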

How the data were processed

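The authors prepared strand-specific libraries from total RNA (NEBNext Ultra Directional kit), sequenced them on an Illumina NextSeq and mapped reads with CLC Genomics Workbench 10. The submitters' processing notes name TAIR 10 as the build, and the strand setting of counting is not given in the sources used here. The deposited values used here were raw counts per gene. Of the count table, 28 columns were not used, which hold normalized values or a library that matched no sample.

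Counts were scaled by TMM factors (0.932 to 1.06). Genes were filtered by genotype and tested by the edgeR 4.0.16 quasi-likelihood test in R 4.3.3, with round and genotype as terms over all 8 libraries and Benjamini-Hochberg adjustment over 20382 genes. Rounds are those of the member rule and are not in the labels. Residuals from genotype means correlated at 0.755 or more between libraries of the same round, so round was kept as the block. Between rounds they correlated at 0.260 or less. Taking out genotype means lowers correlations between rounds by itself, so that value is no evidence for the rounds. No pair of libraries agreed within sampling noise. CPM are counts per 1000000 scaled counts, and ratios of single rounds used a pseudocount of 0.1 CPM. Code was tested on simulated data. Alternatives were DESeq2 1.42.0, the edgeR likelihood ratio test, relative log expression factors, no filter on low counts, only the groups compared, no replicate block, and leaving out each library.

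Members and gene lists were chosen with earlier results of these data known. Text names all members, the transgenes, up to 4 genes with the smallest p of each other list called against Col-0, and the 3 nearest patterns to *TT8* and *TTG2*. The other listed genes were named after their values were seen. Gene positions, exon lengths and upstream windows came from RefSeq TAIR10.1.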

Additional observations from a re-analysis of the deposited data

Results flagged for a closer look

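*BAN* and *DFR* differed between *TT2* OE and *MYB5* OE by the test of the difference itself (edgeR quasi-likelihood test, adjusted p = 0.0168 and 0.022). *BAN* had 80, 35 and 51 counts in the *TT2* OE libraries and 0 and 1 in those of *MYB5* OE. With 0 counts in Col-0 as well, *BAN* passed the filter on low counts only through *TT2* OE, where it was high. *DFR* had 141, 137 and 148 counts in *TT2* OE and 4 and 15 in *MYB5* OE. *TT8* did not differ between the lines in the same test, with 16 to 23 counts in *TT2* OE and 16 and 35 in *MYB5* OE.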

How the results depend on the processing

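Of the 2 members called in *TT2* OE against Col-0, 0 were called with no replicate block, a fit that called 2 genes in all where 287 were called with the block, so most calls of the other genes named in that comparison were lost too. The log2 ratios of *TT8* and *TTG2* were then 3.06 and 1.11, both with an adjusted p of 0.85. With any library left out, 0 to 2 members were called, and in every other alternative the calls of *TT8* and *TTG2* held. In *MYB5* OE against Col-0, where 0 were called, 1 (*TT8*) was called by DESeq2 (adjusted p = 0.0265), by the likelihood ratio test (1.98e-06), with no filter (0.0465) and with only these genotypes in the fit (0.0392). Between rounds 2 and 1, where 3 were called, DESeq2 called 2, without *GL1* (adjusted p = 0.0552). Between rounds 3 and 1, 1 to 3 members were called with a library left out. Between rounds 3 and 2, where 3 were called, 1 was called by DESeq2, 1 with only those rounds in the fit, and 0 to 2 with a library left out. The cause was not tested.

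Signs that turned belonged to values that passed no test. In *TT2* OE against Col-0, the *WER* log2 ratio became 0.0053 with no replicate block, 0.0062 with relative log expression factors, 0.0030 with DESeq2 and 0.0016 with no filter. In *TT2* OE against *MYB5* OE, *GL3* became 0.012 with only these genotypes in the fit and *CPC* 0.22 with no replicate block. *TRY* became 0.019 with rounds 3 and 2 alone. The block changed no other call of a member between genotypes.

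With a library left out, these log2 ratios crossed 0. In *TT2* OE against Col-0, *GL3* ran from -0.11 to 0.14, *EGL3* from -0.061 to 0.22, *WER* from -0.16 to 0.19 and *GL1* from -0.13 to 0.69. In *MYB5* OE against Col-0, *GL3* ran from -0.047 to 0.13, *TTG1* from -0.013 to 0.11, *WER* from -0.13 to 0.43 and *TRY* from -0.076 to 1.03. In *TT2* OE against *MYB5* OE, *CPC* ran from -0.29 to 0.22, *TT8* from -0.63 to 0.042, *GL3* from -0.20 to 0.041, *WER* from -0.45 to 0.13 and *TRY* from -0.57 to 0.55. In round 2 against round 1, *TTG2* ran from -0.14 to 0.22 and *WER* from -0.35 to 0.053. In round 3 against round 1, *GL3* ran from -0.12 to 0.25 and *TTG2* from -0.16 to 0.10. In round 3 against round 2, *TRY* ran from -0.54 to 0.25 and *TT8* from -0.68 to 0.15.

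Depth limited the members *TT8*, *GL1* and, in round 1, *TRY*, with 1 to 35, 5 to 38 and 11 to 19 counts per library. It also limited *TCL1* in round 3, with 1 and 4 counts. *MYB5* OE had 2 libraries and none in round 3. A fit without one of them takes the lone library to vary like those of the other genotypes.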
